A study of Mus musculus with 4 samples.

Results

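Actin filaments move the meiotic spindle of the mouse oocyte to the cortex, so that division gives a large egg and a small polar body. In this system the formin Fmn2 works with the WH2-domain proteins Spire1 and Spire2 to nucleate straight filaments, which grow from vesicles that carry the small GTPase Rab11a and are moved by the motor Myo5b. The Arp2/3 complex, with the actin-related proteins encoded by Actr2 and Actr3 and the scaffold subunit encoded by Arpc2, nucleates branched filaments below the cortex. Cofilin 1, encoded by Cfl1, severs filaments, and profilin 1, encoded by Pfn1, binds monomers and hands them to formins. These 10 genes were chosen by name from the 16861 genes that each library lists, and all 10 were listed and passed the filter on low values, which left 11672 genes.

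RNA was measured by Smart-seq2, in which cDNA is primed at the poly(A) tail and amplified by PCR, in germinal vesicle (GV) oocytes. They came from antral follicles of 3-week-old female C57BL/6J mice for which no genetic change or treatment is named, were stripped of cumulus cells, were sorted by Hoechst staining in medium with milrinone, which holds meiotic arrest, and had their zona pellucida digested before lysis. In non-surrounded nucleolus (NSN) oocytes the chromatin is diffuse, whereas in surrounded nucleolus (SN) oocytes it forms a ring around the nucleolus. There were 2 NSN and 2 SN libraries, each a pool of 15 oocytes, and no source used here says whether the pools came from separate mice, so the p-values measure only the spread between these libraries, which may be technical.

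The deposited values are FPKM, that is read pairs relative to gene length and library total. Read pairs recovered from them gave totals of 17069772 to 17998361 per library. Each of 10 oocyte markers was present in all 4 libraries, with mean FPKM from 19.4 for Figla to 6244 for Zp3, and their sum was 21931 and 20604 FPKM in NSN and 14701 and 14057 FPKM in SN. Of 15 granulosa and cumulus cell markers, Foxl2, Amh, Amhr2, Fst and Tnfaip6 were not listed. The other 10 summed to 9.62 and 14.0 FPKM in the NSN and 14.2 and 14.0 FPKM in the SN libraries, mostly from Cyp19a1 (mean 7.62). The part of these cells, or of the lower oocyte marker sum in SN, in the results below was not tested. The top 100 genes of a library held 39.9% and 38.8% of its read pairs in NSN and 35.5% and 35.4% in SN. The median gene was 0.14 higher in SN on the log2(FPKM + 0.5) scale, and log2 fold changes or differences (SN minus NSN, on this scale) are also given after median scaling, which removes this shift. FPKM is a share of the library, so a change in total RNA per oocyte is not seen. A rise of a given gene cannot be told apart from a fall of other, abundant transcripts.

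The largest change among the 10 genes was that of Fmn2, which rose 1.84-fold in SN oocytes, followed by Actr2, which rose 1.61-fold. These 2 genes passed the test, which asked for a limma adjusted p under 0.05 together with a 1.2-fold difference in either direction. Of all genes tested 7.93% passed, 5.95% higher and 1.98% lower in SN. An unadjusted p under 0.05 was found for 5 of the 10 genes (Fmn2, Actr2, Myo5b, Actr3 and Arpc2) and for 31.7% of all genes. Of the other 8 genes, 4 had a positive and 4 a negative log2 fold change, and none passed, so that 6 of 10 had a higher mean in SN, beside 66.7% of all genes. The median of the log2 fold changes of the 10 genes was 0.17, beside 0.14 for all genes. After median scaling none of the 10 passed by limma, where 2.2% of all genes did. At an unadjusted p under 0.05 there were then 4 (Fmn2 and Actr2 higher, Spire2 and Rab11a lower), beside 27.1% of all genes. With voom, the limma method for counts, on the read pairs 4 passed (Fmn2, Actr2, Myo5b and Arpc2), all higher in SN, where 19.7% of all genes did. Over all genes, 15.1% passed as higher and 4.59% as lower in SN by this fit. TMM scaling (trimmed mean of M values) brought the median gene to 0.011. Voom then called 2 of the 10 (Fmn2 and Actr2, both higher), beside 14.7% of all genes (6.59% higher, 8.15% lower). For any 1 gene, exact permutation of 4 libraries reaches a two-sided p of 0.333 at the lowest.

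**Figure D1:**
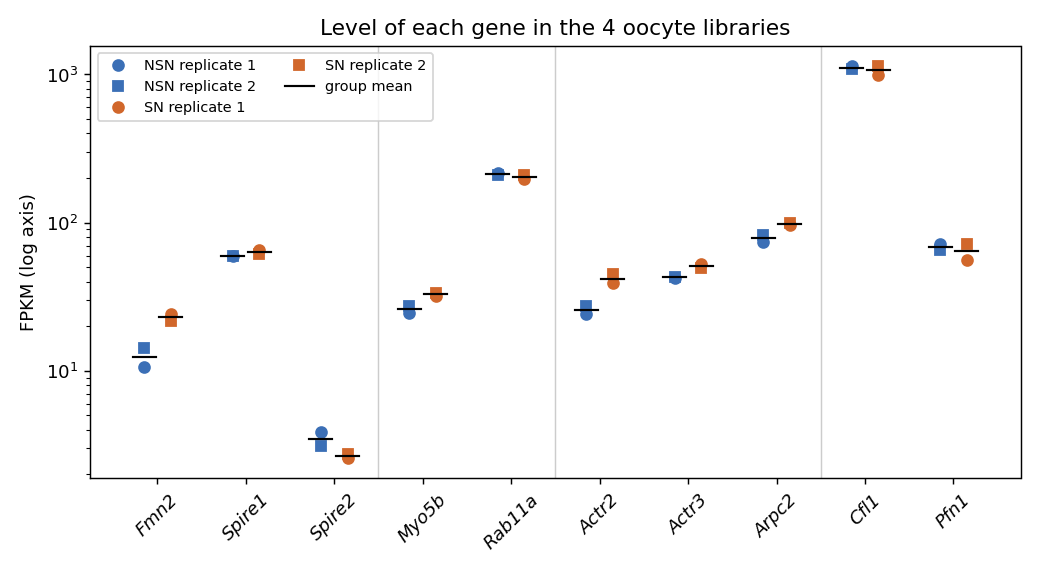
FPKM (log axis) of the 10 genes in the 2 NSN and the 2 SN libraries, as points, with the group means as bars and grey lines between the functional classes. Fmn2 rises from 10.6 and 14.2 to 24.3 and 21.8 FPKM and Actr2 from 24.2 and 27.4 to 38.9 and 44.8 FPKM, whereas the groups overlap for Rab11a, Cfl1 and Pfn1.

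Since cDNA synthesis starts at the poly(A) tail, the 3′ ends of the transcripts are shown for 4 of the genes, namely both that passed the test, Spire2 as the scarcest, and Cfl1 as the most abundant. They are 30-base windows, 5′ to 3′ on the coding strand, from the GENCODE vM39 canonical transcripts on GRCm39, and capitals mark polyadenylation hexamers (AATAAA or ATTAAA) and cytoplasmic polyadenylation elements (CPE, TTTTAT or TTTTAAT).
Fmn2 (chr1:174650267-174650296, plus strand): tatatgaaAATAAAatgaatAATAAAatat
Actr2 (chr11:20012318-20012347, minus strand): tacttctTTTTAATtaagaaAATAAAtaag
Spire2 (chr8:124099563-124099592, plus strand): tgtgtatgtagtgtaagctgAATAAAccct
Cfl1 (chr19:5545198-5545227, plus strand): AATAAATAAATAAAtgAATAAATAAAactt
Actr2 has a TTTTAAT 41 bases from its end, counted from the first base of the motif, and Fmn2 has no CPE in its last 100 bases but a pair of hexamers. Of the 10 genes, 9 have a hexamer in the last 50 bases, the exception being Arpc2, against 75.8% of 9596 protein-coding genes tested. A CPE in the last 100 bases occurs in 2 of them (Actr2 and Rab11a), against 17.9% of the same genes. Only the transcript strand was searched, occurrences may overlap, and a match is a description of the letters, since the 3′ ends used in these oocytes were not measured.

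Fmn2 (ENSMUSG00000028354.15, chromosome 1 from 174329363 to 174650304) encodes the formin on which the cytoplasmic actin mesh of the oocyte depends. Its FPKM was 10.6 and 14.2 in the NSN and 24.3 and 21.8 in the SN libraries, from 1184, 1641, 2672 and 2531 read pairs. Both SN libraries thus lay above both NSN libraries, and NSN replicate 2 was the nearer to them. The means were 12.4 ± 2.59 and 23.1 ± 1.75 (SD, n = 2), a log2 difference of 0.88 (standard error 0.15, 95% interval 0.52 to 1.25, limma adjusted p = 0.038). With voom after TMM scaling it was 0.76 (limma adjusted p = 0.0026). After median scaling it was 0.73 with a limma adjusted p of 0.054. Leaving out a library gave 0.68 (limma adjusted p = 0.072) without NSN replicate 1, 0.81 (0.081) without SN replicate 1 and 0.96 (0.092) without SN replicate 2, none of them past the threshold, and 1.09 (0.0081, still past it) without NSN replicate 2.

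Spire1 (ENSMUSG00000024533.19, chromosome 18 from 67618428 to 67744220) and Spire2 (ENSMUSG00000010154.9, chromosome 8 from 124059360 to 124099601) encode partners of Fmn2 that gather actin monomers. Spire1 had 59.3 and 59.7 FPKM in NSN and 65.6 and 61.2 in SN oocytes. The SN libraries lay just above the NSN libraries, but the log2 fold change of 0.091 (95% interval -0.10 to 0.29, limma adjusted p = 0.47) did not pass the test, and after median scaling it was -0.063. Spire2 had 3.84 and 3.09 FPKM in NSN and 2.57 and 2.74 in SN oocytes, from 110 to 168 read pairs, the fewest of the 10 genes. Its SN libraries lay below the NSN libraries, with a log2 difference of -0.32 (95% interval -0.69 to 0.04, limma adjusted p = 0.20). After median scaling it was -0.46 (limma adjusted p = 0.13). Spire1 made up 93.9% and 95.1% of the summed FPKM of both genes in NSN, and 96.2% and 95.7% in SN oocytes.

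Ratios of genes within a library do not depend on how libraries are scaled, although they keep any error of the gene lengths. The ratio of Fmn2 to Spire1 FPKM was 0.178 and 0.238 in the NSN and 0.370 and 0.357 in the SN libraries, 1.75-fold higher in SN by the means. The ratio of Fmn2 to Spire2 was 2.75 and 4.60 in NSN and 9.46 and 7.95 in SN libraries. Neither ratio overlapped between the configurations, and the SN libraries had the higher ratio in both cases. Since Fmn2 was higher and Spire2 lower in each SN library, their ratio had to separate. The ratio of Fmn2 to Actr2 was 0.437 and 0.520 in NSN and 0.624 and 0.487 in SN libraries, which overlapped. No test was run on these ratios.

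Rab11a (ENSMUSG00000004771.14, chromosome 9 from 64581321 to 64645054) encodes the GTPase of the recycling vesicles from which filaments grow. Its FPKM was 215 and 210.3 in the NSN and 198 and 210.4 in the SN libraries, and the groups overlapped. The log2 fold change was -0.061 (95% interval -0.24 to 0.11, limma adjusted p = 0.60). After median scaling it was -0.22 (limma adjusted p = 0.16). Myo5b (ENSMUSG00000025885.20, chromosome 18 from 74574007 to 74907382), the motor of these vesicles, had 24.5 and 27.4 FPKM in NSN and 32.2 and 33.5 in SN oocytes. Both SN libraries lay higher, with a log2 difference of 0.34 (95% interval 0.11 to 0.57) that missed the threshold (limma adjusted p = 0.075). It was 0.18 after median scaling (limma adjusted p = 0.23). With voom on the read pairs it was 0.34 with a limma adjusted p of 0.018, past the threshold. With voom after TMM scaling it was 0.19 (limma adjusted p = 0.15), not past it. The ratio of Myo5b to Rab11a FPKM was 0.114 and 0.130 in NSN and 0.163 and 0.159 in SN libraries.

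For the Arp2/3 complex, Actr2 (ENSMUSG00000020152.9, chromosome 11 from 20012300 to 20063049) had 24.2 and 27.4 FPKM in the NSN and 38.9 and 44.8 in the SN libraries. The groups stood well apart, with means of 25.8 ± 2.25 and 41.9 ± 4.15 (SD, n = 2). The log2 fold change was 0.69 (standard error 0.11, 95% interval 0.43 to 0.95, limma adjusted p = 0.036). With voom after TMM scaling it was 0.55 (limma adjusted p = 0.0053). After median scaling it was 0.54 with a limma adjusted p of 0.057. Without NSN replicate 1 it was 0.60 (limma adjusted p = 0.077) and without SN replicate 2 it was 0.59 (0.099), so the call was lost, while it held without NSN replicate 2 or SN replicate 1.

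Actr3 (ENSMUSG00000026341.18, chromosome 1 from 125320633 to 125363637), which encodes the other actin-related subunit, had 42.3 and 43.2 FPKM in NSN and 52.8 and 49.8 in SN oocytes. Arpc2 (ENSMUSG00000006304.16, chromosome 1 from 74272190 to 74307373) had 74.6 and 82.3 FPKM in NSN and 97.1 and 99.9 in SN oocytes. Both genes were thus higher in each SN library, by log2 fold changes of 0.26 (95% interval 0.06 to 0.46) and 0.33 (95% interval 0.13 to 0.53) that did not pass the test (limma adjusted p = 0.092 and 0.061). Their values after median scaling were 0.11 and 0.17. The ratio of Actr2 to Actr3 FPKM was 0.571 and 0.634 in NSN and 0.738 and 0.900 in SN libraries, and that of Arpc2 to Actr3 was 1.76 and 1.91 against 1.84 and 2.01, which overlapped.

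The other 7 listed genes of the complex were mixed in direction. None passed the test (limma, 4 at an unadjusted p under 0.05, 2 called by voom), 2 had a positive and 5 a negative log2 fold change, and their median was -0.22. Over all genes 31.7% had such a p, 19.7% were called by voom, 66.7% had a positive value and the median was 0.14. Arpc1a had 28.7 and 27.5 FPKM in NSN and 21.9 and 21.9 in SN oocytes, a log2 difference of -0.35 (limma adjusted p = 0.058), and Arpc5 had 33.9 and 32.0 against 27.5 and 27.6 (-0.25, adjusted p = 0.11). Arpc5l, which had the highest FPKM of the subunits, had 147 and 165 against 139 and 136 FPKM (-0.18, limma adjusted p = 0.20), and 37.2% of its exonic bases overlap other genes (Golga1, Rpl35 and Wdr38). In contrast Arpc1b, the paralog of Arpc1a, had 20.1 and 17.6 against 22.4 and 25.3 (0.33, limma adjusted p = 0.11), and Arpc3 had 2.60 and 2.39 against 3.91 and 3.42 (0.47, limma adjusted p = 0.083). Other annotated genes overlap 17.4% of the exonic bases of Arpc1b and 13.3% of those of Arpc3. The ratio of Actr2 to Arpc1a FPKM was 0.843 and 0.996 in NSN and 1.78 and 2.04 in SN libraries, and that of Arpc1b to Arpc1a was 0.700 and 0.641 against 1.02 and 1.16. Since Actr2 and Arpc1b were higher and Arpc1a lower in each SN library, both ratios had to separate. The summed FPKM of all 10 subunit genes was 379.6 and 402 in NSN and 408 and 412 in SN libraries.

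**Figure D2:**
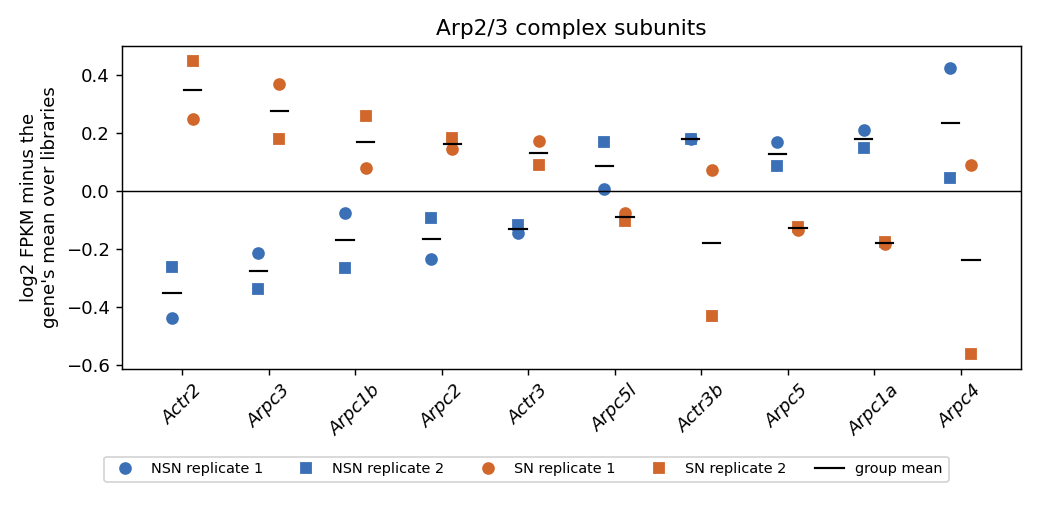
Log2 FPKM of the 10 Arp2/3 subunit genes in each library minus the mean of the gene over the 4 libraries, with group means as bars, ordered by log2 fold change. From Actr2 to Actr3 both SN libraries lie above both NSN libraries, and from Arpc5l to Arpc1a both lie below, while the groups overlap for Arpc4.

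Neither gene of filament turnover and monomer supply passed the test, and their groups overlapped. Cfl1 (ENSMUSG00000056201.11, chromosome 19 from 5540483 to 5545229) had 1133 and 1081 FPKM in the NSN and 995 and 1148 in the SN libraries, with 42495 to 51716 read pairs. The SN libraries enclosed both NSN libraries, and the log2 fold change was -0.050 (95% interval -0.26 to 0.16, limma adjusted p = 0.73), and -0.20 after median scaling. Pfn1 (ENSMUSG00000018293.6, chromosome 11 from 70540882 to 70545976) had 71.3 and 65.8 FPKM in NSN and 56.3 and 72.3 in SN oocytes, a log2 difference of -0.10 (95% interval -0.41 to 0.21, limma adjusted p = 0.62), and -0.25 after median scaling. The SN libraries again enclosed the NSN libraries, and SN replicate 1 was the lowest library for both genes. The ratio of Cfl1 to Pfn1 FPKM was 15.9 and 16.4 in NSN and 17.7 and 15.9 in SN libraries. In the annotation 32.9% of the exonic bases of Cfl1 overlap other genes (Snx32) and 45.4% of those of Pfn1 (Rnf167 and 1700029K24Rik). Reads were counted without strand, so the levels of both are uncertain. The recovered lengths were shorter than the annotated exonic lengths, at 2503 against 3118 bases for Cfl1 and 1026 against 4348 for Pfn1. The overlap within the counted exons is thus not known. Snx32 had 0.968 to 1.49 FPKM and Rnf167 had 6.27 to 8.50 FPKM.

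**Figure D3:**
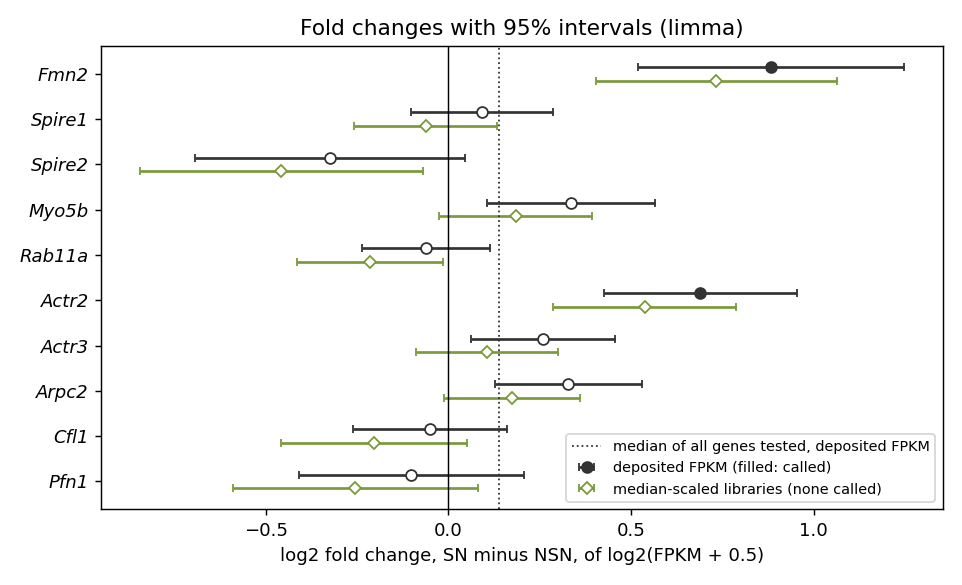
Log2 fold changes (SN minus NSN, of log2(FPKM + 0.5)) with 95% limma intervals for the deposited FPKM (circles, filled where called) and after median scaling (diamonds). The dotted line is the median of all genes tested, 0.14, and Fmn2 (0.88) and Actr2 (0.69) are the called genes on the deposited FPKM.

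Over the 10 genes, both SN libraries lay above both NSN libraries for 6, below them for Spire2, and overlapped them for 3. Of all genes tested, 44.8% had the SN libraries above and 17.8% below. By mean FPKM over the 4 libraries the order was Cfl1 (1089), Rab11a (208), Arpc2 (88.5), Pfn1 (66.4), Spire1 (61.5), Actr3 (47.0), Actr2 (33.8), Myo5b (29.4), Fmn2 (17.7) and Spire2 (3.06). The ranges over all 4 libraries overlapped between Pfn1 and Spire1, between Actr3 and Actr2, and between Actr2 and Myo5b, so these neighbours were not ordered. The order also depended on the gene length. With read pairs per kilobase of GENCODE exonic length only 4 genes (Cfl1, Actr3, Fmn2 and Spire2) held the same rank, and Pfn1 fell to rank 8 while Actr2 rose to rank 5. Over the 4 libraries, the tested genes nearest to Fmn2 in log2(FPKM + 0.5) were Or4k50-ps1, Cobll1 and Hnrnpu, at Euclidean distances of 0.093, 0.157 and 0.175.

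Among other actin genes, 79 of 90 in lists of related function were listed and 61 were tested. Of these, 3 passed the test, with Fhod3 and Wasl higher and Actg1 lower in SN oocytes, against 7.93% of all genes, and the median log2 fold change was 0.062. With voom on the read pairs 16 passed, 11 higher and 5 lower, beside the 19.7% of all genes (15.1% higher, 4.59% lower). With voom after TMM scaling 14 passed, 4 higher and 10 lower, beside 14.7% of all genes (6.59% higher, 8.15% lower). With a library left out, the median log2 fold change of the 61 was 0.061 without NSN replicate 1 and 0.083 without NSN replicate 2. It was 0.066 without SN replicate 1 and 0.042 without SN replicate 2. The medians of all genes were 0.099, 0.164, 0.135 and 0.133 in the same order.

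Among the other formins, the group of nucleators to which Fmn2 belongs, 1 of 6 tested genes passed (3 by voom), 5 had a positive log2 fold change, and the median was 0.35. The values over all genes were 7.93% (19.7% by voom), 66.7% and 0.14. Fhod3, which had the highest FPKM of them, had 15.2 and 19.9 FPKM in NSN and 27.8 and 30.3 in SN oocytes, a log2 difference of 0.72 (standard error 0.14, limma adjusted p = 0.042). It was 0.57 after median scaling, with a limma adjusted p of 0.062. Fmn2 made up 16.8% and 18.4% of the summed FPKM of the listed formins in NSN and 23.4% and 21.5% in SN libraries.

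Of the nucleation-promoting factors that switch on the Arp2/3 complex, and their regulators, 1 of 11 passed, 7 had an unadjusted p under 0.05, voom called 5, and the median was 0.31. Beside these stand 7.93%, 31.7%, 19.7% and 0.14 for all genes. Wasl, which encodes N-WASP, had 22.4 and 24.5 FPKM in NSN and 32.0 and 33.0 in SN oocytes. Each SN library was higher, with a log2 difference of 0.46 (standard error 0.09, limma adjusted p = 0.043), and 0.31 after median scaling (limma adjusted p = 0.083). Brk1, a subunit of the WAVE complex with the highest FPKM of the list, had 94.9 and 95.0 against 82.9 and 81.4 FPKM (-0.21, limma adjusted p = 0.11), and 32.7% of its exonic bases overlap other annotated genes.

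In the actins and their contractile partners 1 of 9 passed (1 by voom), with a median of 0.15, beside 7.93% (19.7% by voom) and 0.14 for all genes. Actg1, which encodes cytoplasmic gamma actin, fell from 30.1 and 27.0 FPKM in NSN to 20.6 and 18.2 in SN oocytes, a log2 difference of -0.55 (standard error 0.11, limma adjusted p = 0.042). It was the only gene of these lists that passed after median scaling (-0.70, limma adjusted p = 0.048). Actb, which encodes beta actin, had 20.6 and 28.5 against 32.0 and 30.6 FPKM (0.36, limma adjusted p = 0.16). The ratio of Actg1 to Actb FPKM was 1.46 and 0.948 in NSN and 0.643 and 0.596 in SN libraries. Since Actg1 was lower and Actb higher in each SN library, this ratio had to separate. Of the exonic bases of Actg1, 15.8% overlap other annotated genes.

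No gene of the 4 lists below passed (limma). In vesicle traffic, 3 of 4 tested genes had an unadjusted p under 0.05, which 31.7% of all genes had. The paralog Rab11b had 4.73 and 3.85 against 3.22 and 2.73 FPKM (-0.46, limma adjusted p = 0.11) and Myo5a had 3.22 and 3.98 against 4.81 and 4.97 (0.40, adjusted p = 0.12). In actin depolymerisation, 2 of 12 had an unadjusted p under 0.05 and the median was -0.084. The muscle-type cofilin gene Cfl2, which had its highest FPKM, had 70.8 and 88.8 against 75.6 and 76.6 FPKM. Monomer binding had 0 of 3 at an unadjusted p under 0.05, with Tmsb10, a thymosin gene, at 226 and 227 against 230 and 237 FPKM. Capping, bundling and cortical linkers had 2 of 6, with Rdx, which encodes radixin, at 929 and 942 against 914 and 944 FPKM. Voom called 2, 1, 0 and 1 genes in these 4 lists, in the order given, beside 19.7% of all genes.

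**Figure D4:**
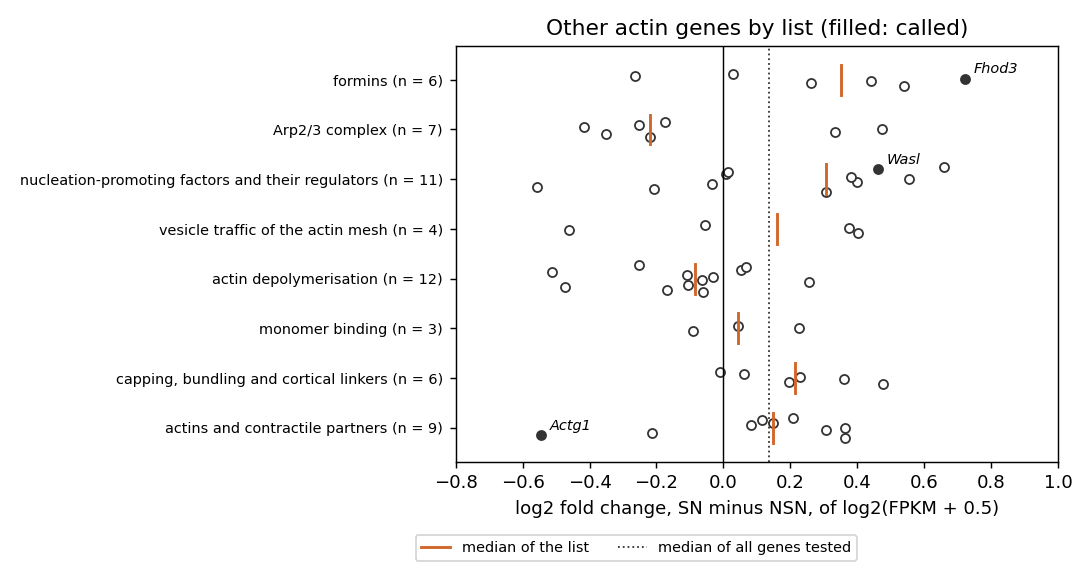
Log2 fold changes (SN minus NSN, of log2(FPKM + 0.5)) of tested actin genes outside the 10, for the lists described in the text, with called genes filled and named and the median of each list in orange. The list medians run from -0.22 for the other Arp2/3 subunits to 0.35 for the formins, and the dotted line is the median of all genes tested, 0.14.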

How the data were processed

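RNA-seq was analysed in 4 libraries, 2 of NSN and 2 of SN oocytes. The authors trimmed reads with Trim Galore 0.6.10, aligned them by HISAT2 to GRCm39, used featureCounts on GENCODE exons to count fragments (primary alignments, mapping quality of at least 10, no strand), and deposited FPKM made with their own script. Their DESeq2 comparison used counts, which were not analysed here. Counting without strand leaves overlapping genes uncertain.

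Because FPKM of whole read pairs come in steps, 5 mitochondrial tRNAs with known lengths gave each library total, and from it followed the length and read pairs of 99.9% of genes (whole within 1e-06). GENCODE vM39 on GRCm39, a later release than the one the authors used, gave positions and lengths, and 97.8% of symbols occur once in it. Its exonic lengths exceeded the recovered lengths by a median ratio of 1.60, so the shares of overlapping bases may not hold for the counted exons. Here log2(FPKM + 0.5) was compared by limma 3.58.1 in R 4.3.3 (lmFit, eBayes with a variance trend) over genes whose mean FPKM reached 0.5. A gene passed at a p under 0.05 after Benjamini-Hochberg adjustment over all genes and a 1.2-fold difference, and p-values are two-sided. Fold changes on this scale understate changes of low genes. The procedure was tested on simulated read pairs with the same spread setting for every gene and few changed genes, which does not measure its error in these data. Without molecular identifiers, PCR copies count as separate read pairs. Alternatives were other pseudocounts, filters, scalings, thresholds, voom, a replicate block and each library left out.

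The 10 genes and the lists were chosen with earlier results of these data known. Of the other actin genes, 1 list counts in the totals but is not reported here. Named besides them are list genes that passed with the groups apart, the gene with the highest mean FPKM in each list reported, and the 3 genes nearest to Fmn2. The other Arp2/3 subunits and Rab11b were named after their values were seen. The gene pairs for the ratios were chosen by hand, and further ratios that were computed are not given.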

Additional observations from a re-analysis of the deposited data

How the results depend on the processing

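Each alternative recomputed the number of called genes among the 10, among the other actin genes and among all genes. As reported these were 2, 3 and 926 of 10, 61 and 11672 tested, and other numbers tested are given where they differ. Of 10, 79 and 16861 genes in the test of all listed genes, 0, 0 and 0 were called. At an unadjusted p under 0.05 there were 5, 22 and 4092. Without the variance trend 0, 0 and 0 were called (4, 20 and 3449 at such a p). The calls were 4, 7 and 1496 of 9, 36 and 5519 tested where the mean FPKM reached 5, which left out Spire2. They were 3, 7 and 1247 of 10, 61 and 10600 tested where each library reached 0.5. After median scaling they were 0, 1 and 257, and after quantile normalization 0, 1 and 230. They were 2, 1 and 418 when the top 100 genes stayed out of the totals. They were 4, 16 and 2298 of 10, 61 and 11661 tested with voom on the read pairs. With voom and TMM scaling they were 2, 14 and 1719 of the same genes. By limma they were 0, 0 and 76 at a fold of at least 2. Leaving out a library gave 0 to 4, 0 to 9 and 0 to 1685, namely 0, 0 and 0 without NSN replicate 1 (limma, 3, 15 and 2278 at an unadjusted p under 0.05), 4, 9 and 1685 without NSN replicate 2, 1, 0 and 148 without SN replicate 1, and 0, 0 and 11 without SN replicate 2, where the lone library of a group is assumed to vary like the others. Of the calls over all genes, 695 were higher and 231 lower in SN as reported, and 78 and 179 after median scaling. The cause of these shifts was not tested.

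Replicate numbers are shared between NSN and SN, but no source used here ties them to a common batch, and the replicate differences of NSN and SN correlated at -0.07 across genes. The replicate block gave 2, 2 and 422 calls.

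The number of the 10 genes that were higher in SN, 6 as reported, was 5 or 6 over the settings and 6 to 8 with a library left out. Of the ranks by level, 4 of 10 held with the reference exonic length. The log2 fold change changed sign for Spire1, to -0.063 after median scaling, -0.0036 after quantile normalization and -0.057 with voom and TMM scaling, and for Cfl1, to 0.020 after quantile normalization. With a library left out it ran from -0.15 to 0.053 for Cfl1 and from -0.28 to 0.078 for Pfn1. No value that changed sign was past the threshold. Over the 159 values of the 10 genes under the alternatives, 133 had the sign and the call reported, 13 (of Fmn2 and Actr2) were no longer past it, 7 (of Myo5b and Arpc2) were newly past it and 6 changed sign. The depth limits Spire2 most, at 110 to 168 read pairs per library.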
